A study of Mus musculus with 6 samples.

Results

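The genes described here encode the machinery that brings proteins into mitochondria. They were taken as every gene whose symbol begins with Timm or Tomm followed by a digit, together with Pam16, Dnajc19, Grpel1, Pmpca, Pmpcb and Samm50. The annotation of the array named 31 such genes, and 30 of them had a probe set naming no other gene, among 19938 genes measured in this way. Timm10b was the exception: its probe set also names Dnhd1, so its values cannot be given to either gene and were left out. A gene with several probe sets was represented by its brightest, by the mean of the 6 arrays.

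The cells were BDC2.5 CD4 T cells, which carry a T cell receptor for an islet antigen of the NOD mouse, a strain that develops autoimmune diabetes. All 3 groups were female NOD mice, given as 7 weeks old, that had received transferred BDC2.5 T cells. The PBS group was injected with buffer, the DEC-BDC group with 100 ng of an anti-DEC205 antibody carrying the BDC antigen, and the DCIR2-BDC group with 100 ng of an anti-DCIR2 antibody carrying it, so that the antigen was delivered to dendritic cells with one or the other surface receptor. Transferred cells were sorted from the spleen after 14 h as Thy1.1+ CD4+ cells, and each group has 2 arrays that the labels call biological duplicates. No group received an antibody without antigen, so binding of the antibody and delivery of the antigen cannot be told apart. The sources used here do not say how many mice gave each array, and p-values measure only the spread between these samples.

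Nearly all mitochondrial proteins are encoded in the nucleus, made in the cytosol and imported. The TOM complex is the entry gate of the outer membrane, from which the SAM complex takes barrel-shaped outer membrane proteins and the small TIM chaperones carry hydrophobic proteins across the space between the membranes. In the inner membrane the TIM22 complex inserts metabolite carriers, and the TIM23 complex passes proteins with a presequence to the matrix, where a motor built around the heat shock protein Hspa9 pulls them in and the processing peptidase removes the presequence. T cells that are activated by antigen grow and are known to enlarge their mitochondrial mass.

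In the DEC-BDC group 14 of the 30 import genes rose against PBS and 0 fell, by limma with a Benjamini-Hochberg adjusted p under 0.05 over all 19938 genes. Of all genes, 5.32% were called higher and 3.53% lower in that comparison. In the DCIR2-BDC group 20 of the 30 rose and 0 fell, where 10.1% of all genes were called higher and 7.82% lower. Calls in either direction came to 8.84% and 17.9% of all genes. The median log2 change of the import genes was 0.71 in the DEC-BDC group, against -0.03 over all genes, and 1.07 in the DCIR2-BDC group, against -0.05 over all genes. A change of at least 2-fold upwards was measured for 9 import genes in the DEC-BDC group and for 17 in the DCIR2-BDC group, where 2.93% and 5.82% of all genes had one. In the DEC-BDC group 29 of 30 had a change above 0 (45.9% of all genes), and both arrays lay above both PBS arrays for 25 of 30 (22.2% of all genes) and below them for 1, Timm8a2 (26.5%). In the DCIR2-BDC group 29 of 30 had a change above 0 (42.5% of all genes), and the arrays lay above those of PBS for 26 (23.4%) and below for 0 (31.9%). The comparisons share the PBS arrays and are not independent of each other. At an unadjusted p under 0.05, 1 import gene (Timm8a2) was lower in the DEC-BDC group and 0 in the DCIR2-BDC group. The count called depends on single arrays: with the second DEC-BDC array left out 8 import genes passed in that comparison, and with the second DCIR2-BDC array left out 14 passed in the other. In RNA from a pool of cells, a change in the share of cells that express a gene cannot be told apart from a change in RNA per cell.

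**Figure D1:**
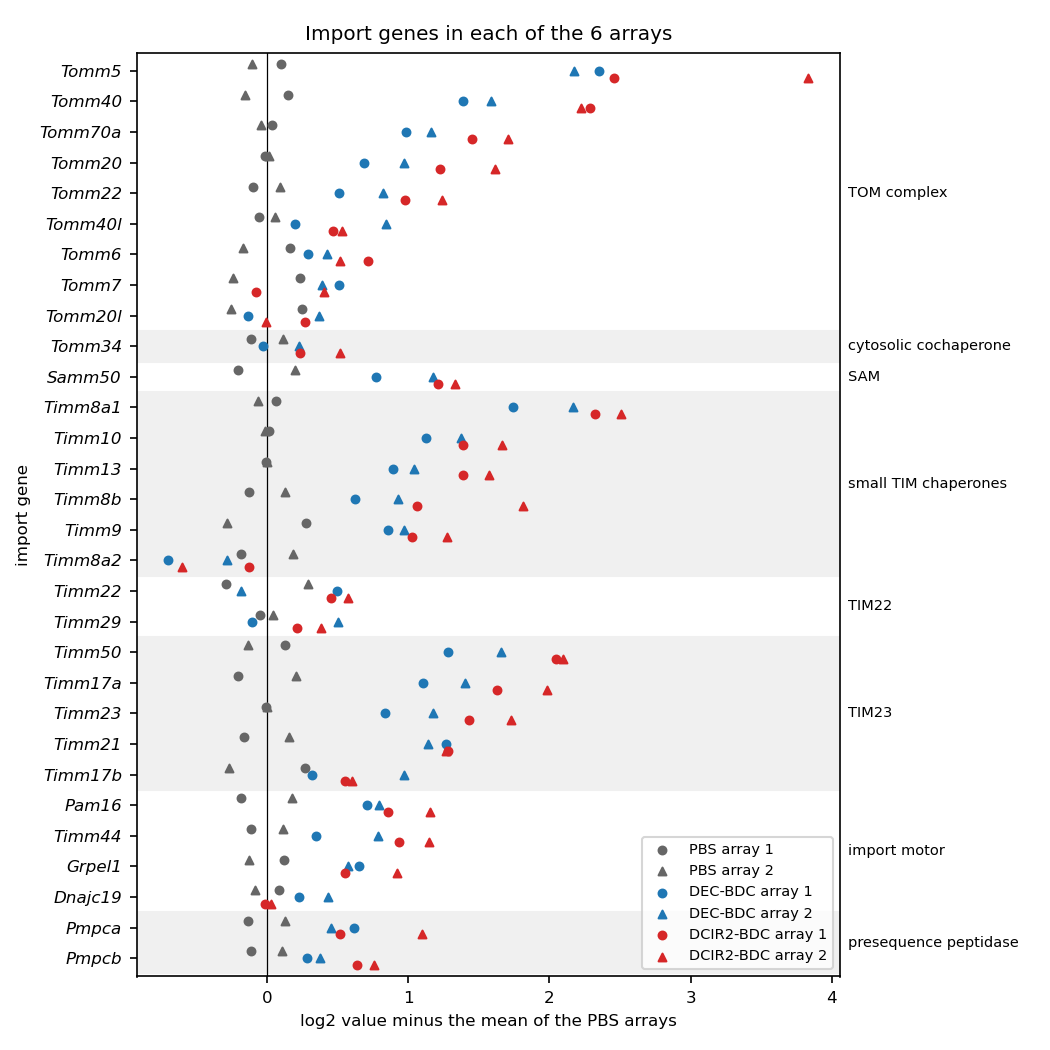
The log2 value of each import gene in each of the 6 arrays, minus the mean of the PBS arrays, with genes in the rows and arrays as points coloured by group (circles for the first array, triangles for the second). In the DEC-BDC group 25 genes have both arrays above both PBS arrays and in the DCIR2-BDC group 26, and Tomm5, Timm8a1, Tomm40 and Timm50 lie farthest to the right.

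All arrays lay in a common range, with medians from 5.43 to 5.56 log2 units and correlations of 0.974 to 0.982 between arrays of a group. Markers of the sorted cells were bright: the 7 measured CD4 T cell markers had a mean log2 value from 10.9 to 11 in the PBS arrays, 10.6 to 10.7 in the DEC-BDC arrays and 10.2 in both DCIR2-BDC arrays. Of these markers 0 passed in the DEC-BDC group by limma (3 at an unadjusted p under 0.05), with a median log2 change of -0.40, and 5 fell in the DCIR2-BDC group (Cd3d, Cd3e, Cd3g, Cd4 and Cd28), with a median of -0.82. The part of this fall in the import genes' values was not tested. The 23 measured markers of CD8 T cells, B cells, dendritic cells, macrophages, neutrophils and natural killer cells had values from 3.28 to 7.50. All of these lay below the lowest CD4 T cell marker value of 9.11, but some lay above the array medians. The highest were those of Ly75 in the PBS arrays, 7.37 and 7.50. Of the 23 markers 0 rose in either group. Of these markers 2 fell in the DEC-BDC group (Ly75 and Cd14) and 1 in the DCIR2-BDC group (Ly75), named here after their values were seen. The import genes also differed within groups. The second array was the higher one for 24 of 30 import genes in the DEC-BDC group, against 55.9% of all genes, and for 25 of 30 in the DCIR2-BDC group, against 48.2% of all genes. In the PBS group the second array was the higher one for 17 of 30, against 49.5% of all genes.

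Before the values, the DNA at the start sites of a few of these genes is given, as the region in which short regulatory motifs were searched. CACGTG, the E-box to which Myc and related factors bind, reads the same on both strands. It was searched on both strands from 250 bases before to 50 bases after each RefSeq start site of GRCm38.p6, in which 27 of the 30 genes have an entry. The motif lay in 5 of the 27 genes (18.5%), Timm10, Timm8a1, Timm9, Tomm20 and Tomm20l, and in 7.15% of all 32851 promoters of this length. Among the 15614 tested genes with a promoter 9.5% hold it. Each match is given with 12 bases to either side, 5′ to 3′ on the strand of the gene, with the E-box in capitals. The positions in the same order are chr2:84827037-84827066 on the plus strand, chrX:134541889-134541918 and chrX:134541629-134541658 on the minus strand, chr12:71136716-71136745 and chr12:71136659-71136688 on the minus strand, chr8:126946030-126946059 on the minus strand and chr12:71111391-71111420 on the plus strand.
Timm10: ccggaagtgaccCACGTGcttcttatttcg
Timm8a1, upstream: ccttcagtggacCACGTGggatgaagcaac
Timm8a1, after the start: ccgtcacccagaCACGTGaaggtcggcaag
Timm9, upstream: cctacattttccCACGTGgtaacgaatctg
Timm9, at the start: catcactgccccCACGTGttctcagctttc
Tomm20: gcacgccacaaaCACGTGctgcccctgacc
Tomm20l: ccggggtttgctCACGTGtggctggcccgt

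Counted in bases from the start site, with negative values upstream, the match in Timm10 begins at 28 and those in Timm8a1 at -236 and 24. In Timm9 they begin at -58 and -1, in Tomm20 at -126 and in Tomm20l at -25. Members with the E-box had a median log2 change of 1.42 in the DCIR2-BDC group and members without it 1.02, and in the DEC-BDC group the medians were 0.92 and 0.66. Over all tested genes with a promoter the medians in the DCIR2-BDC group were 0.00 with the E-box and -0.05 without it, and 17.7% and 9.77% rose. A match of letters is a description and shows no binding.

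For Tomm20, which holds an E-box and an NRF1 motif, and for Timm8a1 and Tomm5, which had large changes, the 250 bases before the start are given, from RefSeq GRCm38.p6, on the minus strand and read 5′ to 3′. They are chr8:126945922-126946171 for Tomm20, chrX:134541671-134541920 for Timm8a1 and chr4:45108114-45108363 for Tomm5. Capitals mark an E-box (CACGTG) and, in Tomm20 only of these 3 genes, the motif of the mitochondrial gene regulator NRF1 (GCGCA, any base, then GCGC, searched on both strands and here on the other strand). The Tomm5 sequence has none of the motifs searched.
Tomm20: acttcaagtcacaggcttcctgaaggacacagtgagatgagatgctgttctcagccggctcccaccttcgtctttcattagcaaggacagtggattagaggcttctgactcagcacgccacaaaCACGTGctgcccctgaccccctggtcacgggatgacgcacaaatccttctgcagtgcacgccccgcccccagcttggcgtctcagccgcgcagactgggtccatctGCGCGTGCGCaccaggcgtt
Timm8a1: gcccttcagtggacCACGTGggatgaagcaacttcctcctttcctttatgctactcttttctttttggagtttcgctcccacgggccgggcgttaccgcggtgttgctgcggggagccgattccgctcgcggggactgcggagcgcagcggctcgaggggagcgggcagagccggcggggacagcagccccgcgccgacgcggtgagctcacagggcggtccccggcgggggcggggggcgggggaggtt
Tomm5: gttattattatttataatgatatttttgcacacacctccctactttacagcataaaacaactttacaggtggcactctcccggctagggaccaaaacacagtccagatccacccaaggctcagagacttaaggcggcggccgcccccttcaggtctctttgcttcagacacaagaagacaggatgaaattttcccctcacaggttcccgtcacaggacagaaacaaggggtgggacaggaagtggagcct

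The NRF1 motif lay in 3 members (Pam16, Timm8b and Tomm20), 11.1% of the 27, and in 4.6% of all promoters and 7.85% of tested genes with a promoter. These 3 members had a median log2 change of 1.42 in the DCIR2-BDC group and members without the motif 1.07. In the DEC-BDC group the medians were 0.78 and 0.66. Over all tested genes with a promoter, 20.1% of those with the NRF1 motif rose in the DCIR2-BDC group and 9.72% of those without it. An ETS motif (CCGGAAG, also searched on both strands), the core to which factors such as Gabpa bind, lay in 11 members or 40.7%, and in 8.86% of all promoters and 13.6% of tested genes with a promoter. Matches of the ETS motif on opposite strands overlap each other in Timm10 and Tomm22. Members with the ETS motif had a median log2 change of 0.81 in the DCIR2-BDC group and those without it 1.21. Over all tested genes, 20.8% of those with the ETS motif rose in that group and 8.9% of those without it.

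**Figure D2:**
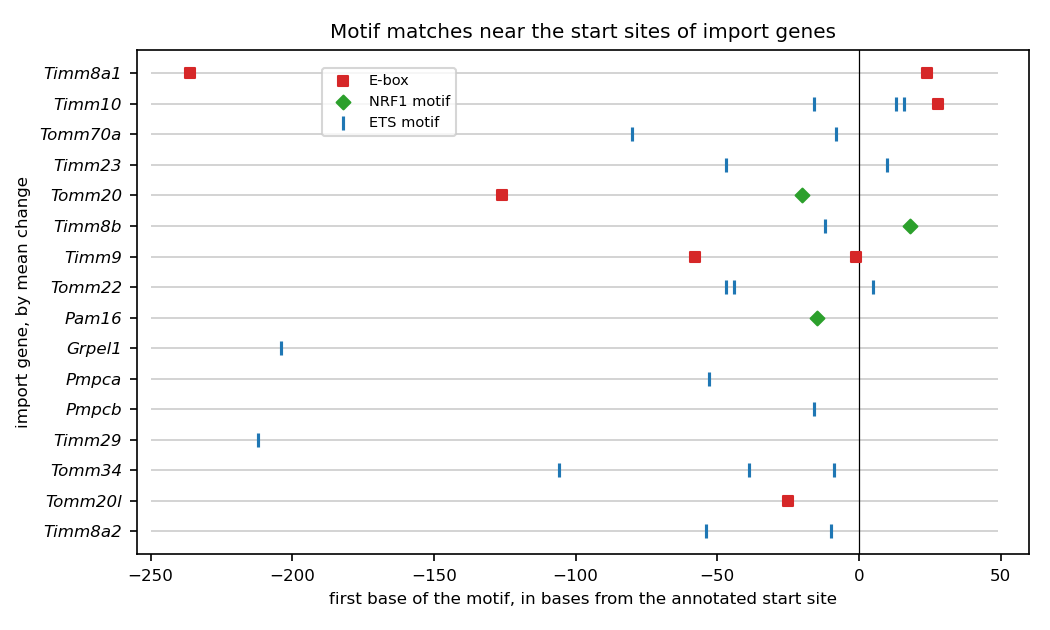
Position of each match of the E-box, the NRF1 motif and the ETS motif, in bases from the annotated start site, for the import genes with at least 1 match, ordered by their mean change. The E-box lies in 5 genes, the NRF1 motif in 3 and the ETS motif in 11.

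For the counts by role and by list that follow, the shares of all genes called higher were 5.32% in the DEC-BDC group and 10.1% in the DCIR2-BDC group. The 9 TOM genes contained both the member with the largest change and several with small ones. In the DEC-BDC group 4 of 9 rose, with a median log2 change of 0.67, and in the DCIR2-BDC group 5 of 9 rose, with a median of 1.11. Tomm5, a small subunit bound to the channel, had log2 values of 5.19 and 4.99 in the PBS arrays, 7.44 and 7.26 in the DEC-BDC arrays, and 7.55 and 8.92 in the DCIR2-BDC arrays. Its PBS values lay below the median of those arrays, and every array of the antibody groups lay above both of them. The log2 change was 2.26 (SE 0.354, adjusted p = 0.0038, limma) in the DEC-BDC group and 3.15 (SE 0.354, adjusted p = 0.000211) in the DCIR2-BDC group, or 4.79-fold and 8.85-fold. The last value leans on one array: without the second DCIR2-BDC array the log2 change was 2.46, and without the first it was 3.83.

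Tomm40 forms the channel through which nearly all imported proteins pass. Its log2 values were 7.21 and 6.91 in PBS, 8.45 and 8.65 in DEC-BDC, and 9.35 and 9.28 in DCIR2-BDC, so that the 3 groups did not overlap. The log2 change was 1.49 (SE 0.191, adjusted p = 0.00156, limma) in the DEC-BDC group and 2.26 (adjusted p = 6.22e-05) in the DCIR2-BDC group. Tomm40l, its paralog, had 5.18 and 5.29 in PBS, 5.43 and 6.08 in DEC-BDC, and 5.70 and 5.77 in DCIR2-BDC. Its log2 changes of 0.52 (adjusted p = 0.171, limma) and 0.50 (adjusted p = 0.135) did not pass, although all antibody arrays lay above the PBS arrays. It passed in the DEC-BDC group without the first DEC-BDC array (log2 change 0.84, adjusted p = 0.032) but changed by 0.20 without the second (adjusted p = 0.69). It passed in the DCIR2-BDC group without the second DEC-BDC array (0.50, adjusted p = 0.0482).

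Of the receptors, which bind arriving proteins, Tomm20 takes mainly proteins with a presequence and Tomm70a mainly carriers with bound chaperones. Tomm20, with the E-box and the NRF1 motif printed above, had 9.28 and 9.31 in PBS, 9.98 and 10.27 in DEC-BDC, and 10.52 and 10.91 in DCIR2-BDC. The groups lay apart in that order, with log2 changes of 0.83 (SE 0.171, adjusted p = 0.0139, limma) and 1.42 (adjusted p = 0.0003). The DEC-BDC call was lost without the first PBS array (adjusted p = 0.0614) and without the second DEC-BDC array (adjusted p = 0.105), in a range of 0.00576 to 0.105 over all alternatives. Its paralog Tomm20l, which also has an E-box, had 6.58 and 6.07 in PBS, 6.19 and 6.70 in DEC-BDC, and 6.59 and 6.32 in DCIR2-BDC. These overlapped, and the 95% intervals of the log2 change ran from -0.41 to 0.65 and from -0.40 to 0.66.

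Tomm70a rose in both groups, by 1.07 (adjusted p = 0.00662, limma) and 1.58 (adjusted p = 0.000286) on the log2 scale. Tomm22, the central receptor, changed by 0.67 in the DEC-BDC group without passing (adjusted p = 0.0689) and rose by 1.11 in the DCIR2-BDC group (adjusted p = 0.00294). Tomm22 passed in the DEC-BDC group in 3 of 15 alternatives (adjusted p down to 0.03). The other small subunits did not pass: Tomm6 changed by 0.36 and 0.62 (adjusted p = 0.357 and 0.0555, the latter passing in 5 of 15 alternatives, down to 0.0255), and Tomm7 by 0.45 and 0.16 (adjusted p = 0.241 and 0.682). The cytosolic cochaperone Tomm34, which is no part of the complex, had 8.59 and 8.82 in PBS, 8.67 and 8.93 in DEC-BDC, and 8.93 and 9.22 in DCIR2-BDC. Its log2 changes of 0.10 (95% interval -0.33 to 0.52) and 0.37 (-0.05 to 0.80) did not pass.

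Samm50, the core of the SAM complex that builds barrel proteins into the outer membrane, had 6.45 and 6.86 in PBS, 7.43 and 7.83 in DEC-BDC, and 7.87 and 7.99 in DCIR2-BDC. It rose by 0.98 on the log2 scale in the DEC-BDC group (SE 0.221, adjusted p = 0.0214, limma) and by 1.27 in the DCIR2-BDC group (adjusted p = 0.00244). The first of these calls was lost without the first PBS array (adjusted p = 0.131) and without the second DEC-BDC array (adjusted p = 0.138), in a range of 0.0097 to 0.138 over all alternatives. Its best known clients, the outer membrane pores Vdac1, Vdac2 and Vdac3, rose in both groups, 3 of 3. Vdac1 rose by 1.17 (adjusted p = 0.00362) and 1.43 (adjusted p = 0.000375), Vdac2 by 0.69 and 0.70, and Vdac3 by 0.80 and 0.71 on the log2 scale.

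Of the 6 small TIM chaperones 4 rose in the DEC-BDC group and 5 in the DCIR2-BDC group, with median log2 changes of 0.94 and 1.46. Timm8a1, whose promoter holds 2 E-boxes, had 7.09 and 6.96 in PBS, 8.77 and 9.19 in DEC-BDC, and 9.35 and 9.53 in DCIR2-BDC. All 3 groups stood apart, and the log2 changes were 1.96 (SE 0.201, adjusted p = 0.000719, limma) and 2.42 (adjusted p = 5.46e-05), or 3.88-fold and 5.34-fold. A second probe set under its symbol gave changes of 1.53 and 1.98. Its human counterpart is the gene of a deafness-dystonia syndrome. Timm10, which pairs with Timm9 in the main chaperone ring, had 7.23 and 7.20 in PBS, 8.34 and 8.59 in DEC-BDC, and 8.60 and 8.88 in DCIR2-BDC. It rose by 1.25 (SE 0.194, adjusted p = 0.00364) and 1.53 (adjusted p = 0.000397).

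Timm9 rose by 0.92 (adjusted p = 0.0307, limma) and 1.15 (adjusted p = 0.00488). Its DEC-BDC call was lost in 7 of 15 alternatives, the adjusted p ranging from 0.0134 to 0.171, among them leaving out the second PBS array (0.171) or any 1 of the 4 antibody arrays (0.0575 to 0.132). Its DCIR2-BDC call was lost without the second DCIR2-BDC array (0.0618, in a range of 0.00188 to 0.0618). Timm13, which forms a ring with Timm8a1, rose by 0.97 (adjusted p = 0.00944) and 1.48 (adjusted p = 0.000337), the first of which was lost without the second DEC-BDC array (0.0625, in a range of 0.00327 to 0.0625).

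Timm8b and Timm8a2 are relatives of Timm8a1. Timm8b had 6.98 and 7.23 in PBS, 7.73 and 8.03 in DEC-BDC, and 8.17 and 8.92 in DCIR2-BDC. Its log2 change was 0.78 in the DEC-BDC group (adjusted p = 0.101, limma, passing in 2 of 15 alternatives, down to 0.0331) and 1.44 in the DCIR2-BDC group (SE 0.258, adjusted p = 0.00295). Timm8a2 had 4.64 and 5.01 in PBS, 4.13 and 4.54 in DEC-BDC, and 4.70 and 4.23 in DCIR2-BDC. It was the one import gene with a negative mean change in both groups, of -0.49 (adjusted p = 0.192) and -0.36 (adjusted p = 0.284). The DEC-BDC arrays lay below the PBS arrays and the DCIR2-BDC arrays overlapped them, all at values below the array medians.

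**Figure D3:**
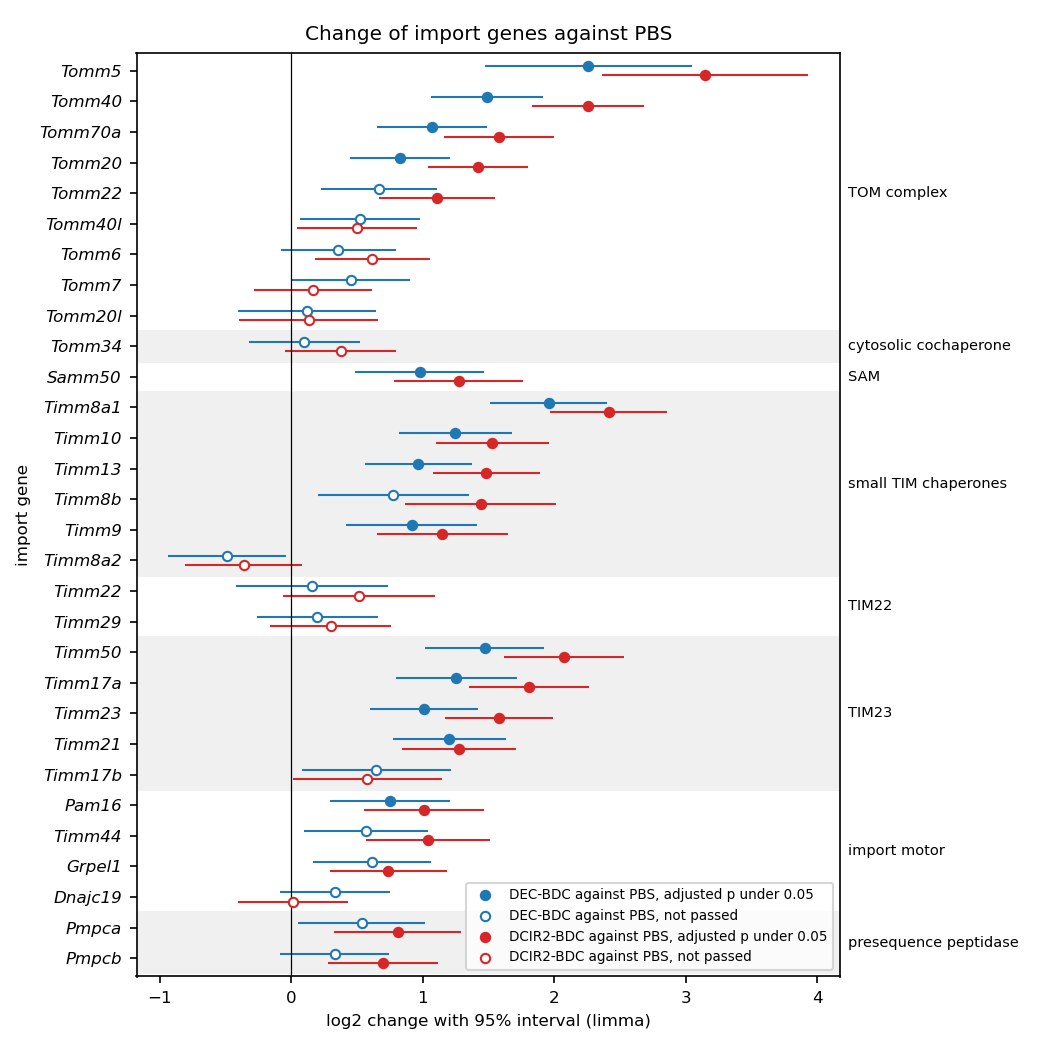
The log2 change of each import gene against PBS with its 95% interval from limma, for the DEC-BDC and the DCIR2-BDC group. Filled points passed an adjusted p of 0.05, 14 in the DEC-BDC group and 20 in the DCIR2-BDC group, and all of them lie above 0.

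The inner membrane translocases are TIM23 and TIM22. Of the 5 TIM23 genes 4 rose in each group, with median log2 changes of 1.20 and 1.58. Of the 2 measured TIM22 genes 0 passed in either group, with median changes of 0.18 and 0.41 and none at an unadjusted p under 0.05. The difference between these lists was not tested. Timm50, the receptor of TIM23 for presequences, had 6.60 and 6.33 in PBS, 7.75 and 8.12 in DEC-BDC, and 8.51 and 8.56 in DCIR2-BDC. Its log2 changes were 1.47 (SE 0.205, adjusted p = 0.00224, limma) and 2.07 (adjusted p = 0.000115), with no overlap between any of the groups. Timm17a, a core subunit, had 8.03 and 8.44 in PBS, 9.34 and 9.64 in DEC-BDC, and 9.87 and 10.22 in DCIR2-BDC, and rose 2.39-fold (adjusted p = 0.00489) and 3.50-fold (adjusted p = 0.00023).

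Timm17b is the alternative to Timm17a in the same complex. It had 6.75 and 6.22 in PBS, 6.81 and 7.46 in DEC-BDC, and 7.04 and 7.09 in DCIR2-BDC. All antibody arrays lay above the PBS arrays, but the log2 changes of 0.65 (adjusted p = 0.173, limma) and 0.58 (adjusted p = 0.168) did not pass. The channel subunit Timm23 rose by 1.01 (adjusted p = 0.00803) and 1.58 (adjusted p = 0.000266), and Timm21, which links TIM23 to the respiratory chain, by 1.20 (adjusted p = 0.00436) and 1.28 (adjusted p = 0.00114). The DEC-BDC call of Timm23 was lost without the second DEC-BDC array (0.0655, in a range of 0.0026 to 0.0655).

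Timm22, the channel for carriers, had 5.94 and 6.51 in PBS, 6.72 and 6.04 in DEC-BDC, and 6.68 and 6.80 in DCIR2-BDC. Its DEC-BDC arrays straddled the PBS arrays, and the 95% interval of its log2 change ran from -0.42 to 0.73 there and from -0.06 to 1.09 in the DCIR2-BDC group. Timm29, a subunit of the same complex, had 5.52 and 5.62 in PBS, 5.46 and 6.07 in DEC-BDC, and 5.78 and 5.95 in DCIR2-BDC, with intervals from -0.26 to 0.66 and from -0.16 to 0.76. A 2-fold rise of the array signal lies outside each of these intervals except that of Timm22 in the DCIR2-BDC group. In PBS, Timm29 lay near the array medians of 5.55 and 5.56. The part of a low signal in the small changes of these genes was not tested. Another gene of this complex, Agk, from the list of other import genes and named after its values were seen, had log2 changes of -0.25 and 0.07 (adjusted p = 0.56 and 0.877, limma).

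Many substrates of TIM22 are carriers with an Slc25a symbol. The list took every such symbol, without a check that each protein is inserted by TIM22. Of 46 measured Slc25a genes 4 rose and 3 fell in the DEC-BDC group, with a median log2 change of -0.12, and 8 rose and 6 fell in the DCIR2-BDC group, with a median of -0.08. These are 8.70% and 6.52% of the carriers in the DEC-BDC group, where 5.32% and 3.53% of all genes rose and fell, and 17.4% and 13% in the DCIR2-BDC group, against 10.1% and 7.82% of all genes. Slc25a5, an ADP/ATP carrier, rose by 1.07 (adjusted p = 0.00273, limma) and 1.56 (adjusted p = 0.00012), and Slc25a1, the citrate carrier, by 1.32 (adjusted p = 0.0116) and 1.39 (adjusted p = 0.00384). Slc25a2, an ornithine carrier, fell by 0.92 (adjusted p = 0.0298) and 1.21 (adjusted p = 0.00362). Slc25a27 also fell in both groups, Slc25a40 in the DEC-BDC group, and Slc25a36, Slc25a45, Slc25a24 and Slc25a29 in the DCIR2-BDC group.

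The motor of TIM23 gave mixed values. Of 4 genes 1 rose in the DEC-BDC group and 3 in the DCIR2-BDC group, with median log2 changes of 0.59 and 0.87. Pam16, which regulates the motor, had 7.23 and 7.59 in PBS, 8.11 and 8.20 in DEC-BDC, and 8.27 and 8.57 in DCIR2-BDC. Its change of 0.75 in the DEC-BDC group stood at the threshold (SE 0.206, adjusted p = 0.0492, limma), and the call was lost in 9 of 15 alternatives, among them leaving out any 1 of the 6 arrays, in a range of 0.0216 to 0.248. In the DCIR2-BDC group it rose by 1.01 (adjusted p = 0.00622), a call lost without the second DCIR2-BDC array (0.0746, in a range of 0.00229 to 0.0746).

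Timm44, which ties Hspa9 to the channel, had 7.22 and 7.45 in PBS, 7.68 and 8.11 in DEC-BDC, and 8.26 and 8.48 in DCIR2-BDC. It changed by 0.57 without passing (adjusted p = 0.151, limma) and rose by 1.04 in the DCIR2-BDC group (SE 0.214, adjusted p = 0.00631), which was lost without the second DCIR2-BDC array (0.0717, in a range of 0.00239 to 0.0717). Grpel1, the nucleotide exchange factor of Hspa9, had 7.82 and 7.57 in PBS, 8.35 and 8.27 in DEC-BDC, and 8.25 and 8.62 in DCIR2-BDC. It changed by 0.61 (adjusted p = 0.0973) and rose by 0.74 (SE 0.201, adjusted p = 0.0276), the latter lost without the second PBS array (0.141) or the second DCIR2-BDC array (0.216), in a range of 0.0116 to 0.216. Dnajc19, a J-protein of the motor, changed by 0.33 (95% interval -0.09 to 0.75) and 0.01 (-0.41 to 0.43) on the log2 scale, which leaves a 2-fold rise outside both intervals. Its relative Dnajc15, from the list of other import genes, is named here after its values were seen. Dnajc15 rose by 1.27 (adjusted p = 0.0296, limma) and 1.44 (adjusted p = 0.00803).

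The subunits of the processing peptidase passed in the DCIR2-BDC group only, although the difference between the antibody groups passed for neither. Pmpca, the alpha subunit, had 8.34 and 8.60 in PBS, 9.09 and 8.93 in DEC-BDC, and 8.99 and 9.57 in DCIR2-BDC. Pmpcb, the catalytic beta subunit, had 7.47 and 7.69 in PBS, 7.86 and 7.96 in DEC-BDC, and 8.21 and 8.33 in DCIR2-BDC. Every antibody array was above both PBS arrays for each of them. The log2 changes in the DEC-BDC group were 0.54 for Pmpca (adjusted p = 0.187, limma) and 0.33 for Pmpcb (adjusted p = 0.37). In the DCIR2-BDC group they were 0.81 (SE 0.218, adjusted p = 0.0258) and 0.70 (SE 0.187, adjusted p = 0.0253). The Pmpca call was lost without the first PBS array (0.138) or the second DCIR2-BDC array (0.228), in a range of 0.0102 to 0.228. The Pmpcb call was lost without the first PBS array (0.139), the first DCIR2-BDC array (0.0881) or the second (0.153), in a range of 0.0112 to 0.153.

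Several members have a close relative in the same complex, and the difference within each pair was followed over the arrays. The log2 difference between Tomm40 and Tomm40l, set to 0 at the PBS mean, was 1.19 and 0.75 in the DEC-BDC arrays and 1.82 and 1.69 in the DCIR2-BDC arrays, where the PBS arrays lay 0.21 to either side of 0. That between Timm8a1 and Timm8b was 1.12 and 1.24 in DEC-BDC and 1.26 and 0.70 in DCIR2-BDC, with the PBS arrays at 0.19 to either side. For Tomm20 over Tomm20l it was 0.82 and 0.60 in DEC-BDC and 0.96 and 1.63 in DCIR2-BDC, with PBS at 0.27. In these pairs all antibody arrays lay outside the range of the PBS arrays. The side on which they lay follows from the changes given above and is no further result. How often other pairs of genes do so was not computed. The pair Dnajc19 and Dnajc15, in which the relative rose and the member did not pass, was not followed over the arrays.

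The pair Timm17a and Timm17b had differences of 0.78 and 0.43 in DEC-BDC, which overlapped the PBS arrays at 0.47 to either side, and of 1.08 and 1.38 in DCIR2-BDC, which did not. Grpel2, the relative of Grpel1, had log2 values of 7.02 in both PBS arrays, 7.28 and 6.92 in DEC-BDC, and 7.28 and 7.32 in DCIR2-BDC, and did not pass in either group (adjusted p = 0.885 and 0.415, limma). The difference between Grpel1 and Grpel2 was 0.39 and 0.67 in DEC-BDC and 0.30 and 0.62 in DCIR2-BDC, outside the PBS arrays at 0.12 to either side. Each such difference is a ratio within an array. Tomm40l lay below the array medians in PBS, and the part of its low signal in the difference to Tomm40 was not tested.

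Between the antibody groups the import genes were higher after DCIR2-BDC in most cases, but 0 of 30 passed by limma, where 0.0201% of all genes were called higher and 0 lower. At an unadjusted p under 0.05, 11 of the 30 were higher and 0 lower, where 5.58% of all genes were higher. For 20 of the 30 both DCIR2-BDC arrays lay above both DEC-BDC arrays, and for 1, Dnajc19, below, where 19.3% and 20.9% of all genes did so. The difference was above 0 for 26 of 30, against 47.9% of all genes, with a median log2 difference of 0.29, against -0.01 over all genes. It was not particular to the import genes. In lists described below it was above 0 for 72 of 77 mitochondrial ribosomal genes (median 0.33) and 21 of 23 other import genes (0.34). For the respiratory chain it was above 0 for 48 of 77 (0.04), and for the Slc25a genes for 25 of 46 (0.02). Of the 30 genes, 25 had group means in the order PBS, DEC-BDC, DCIR2-BDC from low to high, as did 22.3% of all genes. The import genes also shifted together between the arrays of an antibody group, so these counts do not stand for 30 separate observations. Their median log2 difference, second array minus first, was 0.252 in the DEC-BDC group and 0.201 in the DCIR2-BDC group. Set against the PBS mean, their median was 0.639 and 0.886 in the DEC-BDC arrays and 0.956 and 1.20 in the DCIR2-BDC arrays. Tomm5 had the largest difference between the antibody groups, of 0.89 (95% interval 0.10 to 1.67, adjusted p = 0.437, limma). Tomm40 followed with 0.77 (0.34 to 1.19, adjusted p = 0.225) and Timm8b with 0.66 (0.09 to 1.24, adjusted p = 0.424). This order rests on the second DCIR2-BDC array: with 1 array left out the difference ran from 0.20 to 1.57 for Tomm5, from 0.67 to 0.87 for Tomm40 and from 0.29 to 1.04 for Timm8b, and without that array Tomm5 and Timm8b had their lowest values, below Tomm40. With 1 array left out the sign of the difference turned for Timm29, Timm8a2, Tomm20l, Grpel1, Pmpca, Timm17b and Tomm40l. The mean was lower after DCIR2-BDC for Dnajc19 by -0.32, for Tomm7 by -0.29, for Timm17b by -0.07 and for Tomm40l by -0.02. A p that misses the threshold does not show that the groups are alike: 25 of the 30 intervals exclude a 2-fold rise and 5 do not.

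Other genes of the import pathway, from a list that holds chaperones, the disulfide relay and further peptidases, were compared next. Of 23 measured, 9 rose and 0 fell in the DEC-BDC group, with a median log2 change of 0.44, and 15 rose and 0 fell in the DCIR2-BDC group, with a median of 0.97. Chchd4, the receptor of the disulfide relay that traps the small TIM chaperones between the membranes, had 5.17 and 5.42 in PBS, 7.08 and 7.13 in DEC-BDC, and 7.37 and 7.88 in DCIR2-BDC. It rose by 1.81 (adjusted p = 0.00099, limma) and 2.34 (adjusted p = 7.74e-05). Hspd1, the matrix chaperonin that folds imported proteins, rose by 1.82 (adjusted p = 0.000549) and 2.20 (adjusted p = 4.88e-05). Hspa9, the motor's heat shock protein, had 8.27 and 8.33 in PBS, 9.56 and 9.63 in DEC-BDC, and 10.41 and 10.30 in DCIR2-BDC, with rises of 1.30 (adjusted p = 0.00106) and 2.06 (adjusted p = 3.93e-05).

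Among 11 regulators of mitochondrial genes 2 rose in the DEC-BDC group (18.2%, against 5.32% of all genes) and 3 in the DCIR2-BDC group (27.3%, against 10.1%), and 0 fell. The median log2 change of the list was 0.21 in the DEC-BDC group and 0.35 in the DCIR2-BDC group, with 3 of the 11 below 0 in each. Most regulators thus did not pass. Myc, a growth factor-induced transcription factor that binds the E-box, rose by 2.06 (adjusted p = 0.0028, limma) and 2.74 (adjusted p = 0.000189). Pprc1, a coactivator of mitochondrial biogenesis, rose by 1.36 (adjusted p = 0.00203) and 1.79 (adjusted p = 0.000137). Gabpa, which binds the ETS motif, changed by 0.55 (adjusted p = 0.219) and rose by 0.83 (adjusted p = 0.0344). Nrf1, named after its values were seen because its motif was searched, changed by -0.30 (adjusted p = 0.545) in the DEC-BDC group and by less than the rounding, with an adjusted p of 0.999, in the DCIR2-BDC group.

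The import genes were set beside other mitochondrial lists. Of 77 measured ribosomal genes 33 rose and 0 fell in the DEC-BDC group, with a median log2 change of 0.72, and 52 rose and 0 fell in the DCIR2-BDC group, with a median of 1.03. The largest mean changes were those of Mrps6 (1.49 and 2.05 on the log2 scale), Mrps18b (1.33 and 1.99) and Mrps5 (1.33 and 1.94), which encode proteins of the small subunit. The respiratory chain list was taken by symbol: Nduf with A, B, C, S or V and a digit, Uqcr, Cox4 to Cox8, and Atp5. It thus holds ATP synthase genes and no complex II genes, and whether each gene encodes a subunit was not checked. Of 77 measured genes of this list 23 rose and 0 fell in the DEC-BDC group, with a median of 0.39. In the DCIR2-BDC group 28 rose and 2 fell, with a median of 0.41. The largest mean changes were those of the complex I genes Ndufb6 (1.57 and 1.36), Ndufa12 (1.30 and 1.31) and Ndufs8 (1.14 and 1.44). The genes that fell in the DCIR2-BDC group were Ndufv3, by 0.95 (adjusted p = 0.00897, limma), and Cox7a2l, by 0.60 (adjusted p = 0.0213). The differences between the lists were not tested.

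**Figure D4:**
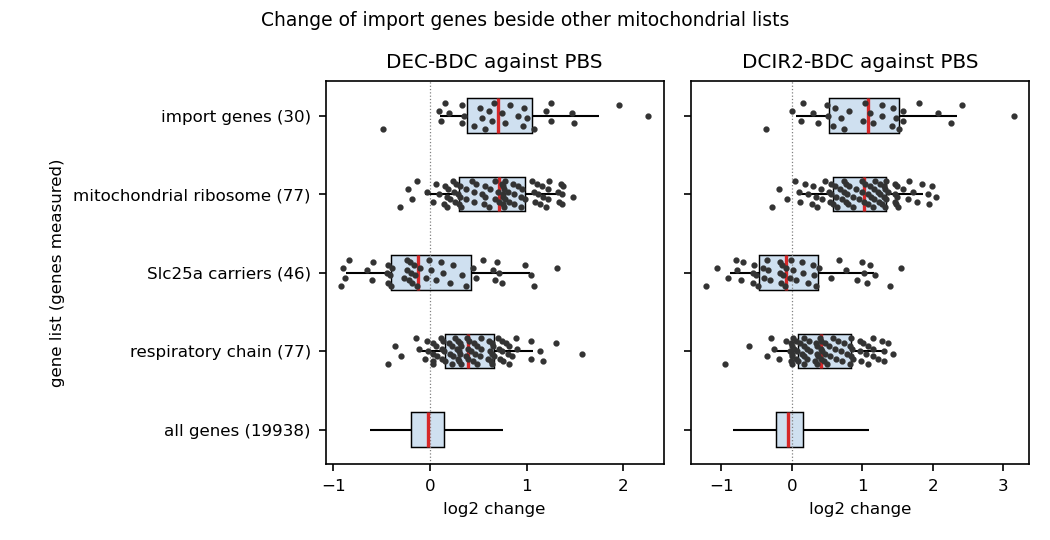
Log2 changes against PBS of the genes in each mitochondrial list, in the DEC-BDC group and in the DCIR2-BDC group, with the number of genes measured beside each list; points are genes, red lines medians, boxes quartiles, and black lines run from percentile 5 to percentile 95. The import genes have medians of 0.71 and 1.07, the ribosomal proteins of 0.72 and 1.03, the respiratory chain of 0.39 and 0.41, and the Slc25a carriers of -0.12 and -0.08.

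Of the 30 members, 5 had further probe sets under their own symbol, 7 in all, and every one of these had a positive change in both groups. They gave log2 changes of 0.53 and 0.88 for Pam16, 0.94 and 1.39 for Timm17a, and 0.87 and 1.53 for Tomm20, in the DEC-BDC and DCIR2-BDC groups. For Timm23 they gave 0.86 and 1.31 in one set and 1.02 and 1.64 in a pair of sets with identical values on all arrays. Such sets can lie on near-identical copies of a gene, so the values of Pam16, Timm17a, Timm23, Timm8a1 and Tomm20 may mix a gene with its copies. The genome positions of the probe sets were not available, so the same was not checked for the members with a single probe set.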

How the data were processed

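RNA levels were read on 6 Affymetrix arrays. Amplified cDNA from 5 ng of total RNA was hybridised, per the labels' protocols, and such small inputs can raise the noise of weakly expressed genes. The authors deposited log2 values for 35556 probe sets, computed with RMA in Partek, per the submitters' processing notes. RMA gives every array a like distribution, which hides any shift common to the whole transcriptome. The sources used here state neither its settings nor versions.

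The platform annotation gave 1 symbol to 21789 probe sets, several to 1621 and none here to 12146. All 30 members matched RefSeq (GRCm38.p6) by Entrez identifier. Groups were compared with limma 3.58.1 in R 4.3.3: 1 mean per group over 6 arrays, moderated variances with a trend (residual degrees of freedom 3), two-sided, Benjamini-Hochberg adjusted over 19938 genes, threshold 0.05, intervals of 95%. The median interval of a member reached 0.449 to either side. The code was tested on simulated data. Values are given for the 2 members per role with the largest mean change, for members falling in both groups and for pairs of relatives; from each pathway list the 3 largest mean changes and any gene that fell and passed are named. Members and lists were chosen with earlier results of these data known. The 15 alternatives leave out each array in turn or change scaling, filter, probe sets, variance model, arrays fitted or replicate block.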

Additional observations from a re-analysis of the deposited data

How the results depend on the processing

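In all 15 alternatives 0 members were called lower in any comparison, and 0 were called between the antibody groups. The count of members called in the DEC-BDC group, 14, ranged from 8 to 13 with 1 array left out and was 6 with every probe set tested together, and their median log2 change ranged from 0.639 to 0.886 with 1 array left out. The count in the DCIR2-BDC group, 20, ranged from 14 to 21 with 1 array left out and from 17 to 21 otherwise, and the median from 0.956 to 1.20. Over all genes, 1763 were called in the DEC-BDC group, 997 to 1367 with 1 array left out and 694 with every probe set, and 3568 in the DCIR2-BDC group, 2090 to 3637 with 1 array left out. Between the antibody groups 4 genes were called (Cpd, Il3, Serpinb6b and Zbtb32, named after their values were seen), 0 to 27 with 1 array left out, 9 without the dimmest 50% of genes, 0 with every probe set, 0 without the variance trend and 2 with the replicate block. Without the dimmest 50% of genes 28 members were left, and 17 and 21 of them passed. With every probe set the DEC-BDC calls of 8 members were lost: Timm13 (adjusted p = 0.0514, limma), Timm17a (0.0559), Timm23 (0.0589), Tomm5 (0.0663), Tomm20 (0.085), Samm50 (0.102), Timm9 (0.125) and Pam16 (0.14). The DCIR2-BDC calls of Pmpcb (0.0591), Grpel1 (0.0781) and Pmpca (0.0972) were lost too. Gained in some alternatives were Tomm22, Timm8b, Grpel1 and Tomm40l in the DEC-BDC group and Tomm6 and Tomm40l in the DCIR2-BDC group.

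Centring each array on its median moved the median change of all genes in the DCIR2-BDC group from -0.05 to 0.06. The called genes split into 2394 higher and 1173 lower there (67.1% higher, against 2008 and 1560 or 56.3%) and into 1186 and 498 in the DEC-BDC group (70.4%, against 1060 and 703 or 60.1%). The labels do not say whether arrays with the same replicate number are paired. Their deviations from the group means correlated at 0.145 between PBS and DEC-BDC, 0.131 between PBS and DCIR2-BDC and 0.0714 between the antibody groups. With 2 arrays a group these values cannot decide whether the arrays are paired. With the replicate block 16 members passed in the DEC-BDC group and 21 in the DCIR2-BDC group, and 2069, 3885 and 2 genes in the 3 comparisons.

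Small changes turned sign with 1 array left out. In the DEC-BDC group the log2 change ranged from -0.18 to 0.50 for Timm22, -0.11 to 0.50 for Timm29, -0.13 to 0.37 for Tomm20l and -0.0293 to 0.226 for Tomm34. In the DCIR2-BDC group it ranged from -0.0725 to 0.0945 for Dnajc19 (-0.0278 with quantile normalization), -0.12 to 0.38 for Tomm20l and -0.0750 to 0.403 for Tomm7. Between the antibody groups it ranged from -0.39 to 0.26 for Timm17b and -0.34 to 0.30 for Tomm40l (0.0142 with quantile normalization and 0.0185 with median centring), and the sign also turned for Timm29, Timm8a2, Tomm20l, Grpel1 and Pmpca. The cause was not tested. The low number of arrays limits the precision.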
